A study of Homo sapiens with 16 samples.

Results

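The immediate early transcription factors FOS, FOSB, JUN, JUNB, JUND, EGR1, EGR2, EGR3, ATF3 and IER2 were taken by symbol from a table of read counts per gene, and are 10 of its 25728 genes. The counts come from RNA sequencing of Kelly and LAN-1, established human neuroblastoma cell lines of the kind in which the MYCN oncogene is amplified. Each line received GSK126 at 2 uM, an inhibitor of the histone methyltransferase EZH2, or its solvent DMSO, and RNA was taken at day 2 or day 5. This gave 8 groups (Kelly DMSO, Kelly GSK126, LAN-1 DMSO and LAN-1 GSK126, each at both days) of 2 libraries each, 16 in all. Every group is 1 line grown in culture, so a difference between Kelly and LAN-1 is a difference between 2 lines. The labels do not say that the duplicates came from separate cultures, so p-values measure only the spread between these libraries, which may be technical.

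Immediate early genes are transcribed within minutes of a growth factor, calcium or stress signal, from promoters already loaded with factors such as SRF and CREB, and their messages decay quickly. FOS and JUN family proteins pair through leucine zippers to form AP-1, which binds the TGANTCA element, while ATF3 belongs to the related ATF/CREB group and often represses. EGR1, EGR2 and EGR3 are zinc finger factors that share the GCGNGGGCG element and are held in check by the NAB corepressors. EGR1 is a widely used readout of ERK signalling, and JUND differs from JUN and JUNB in being expressed steadily rather than in bursts. Neither a stimulus nor an early time point is part of the design, so the levels here are those of cells in continuous culture.

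The genomic sequence just upstream of 4 members is shown because EGR1, JUND and JUNB carried the firmest differences between the lines, and because the reads of EGR2, few as they were, all lay in LAN-1, where EGR1 was higher. The sequences are from RefSeq's GRCh38.p14 annotation, each the 250 bases before the start, 5′ to 3′ on the gene's own strand. Capitals mark CArG boxes, the binding element of SRF (10 bases, known by its ends CC and GG around a run of A and T), and the CREB element core TGACGT or its reverse complement ACGTCA. EGR2 has 3 starts in that annotation, and the one shown is the only one of them with a CArG box.
EGR1, chr5:138465229-138465478, plus strand: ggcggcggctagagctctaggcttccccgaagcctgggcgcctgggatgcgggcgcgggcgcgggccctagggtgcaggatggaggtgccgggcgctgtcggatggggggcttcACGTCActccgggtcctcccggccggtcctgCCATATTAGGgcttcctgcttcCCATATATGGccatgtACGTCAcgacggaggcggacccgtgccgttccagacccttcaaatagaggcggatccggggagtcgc
EGR2, chr10:62816367-62816616, minus strand: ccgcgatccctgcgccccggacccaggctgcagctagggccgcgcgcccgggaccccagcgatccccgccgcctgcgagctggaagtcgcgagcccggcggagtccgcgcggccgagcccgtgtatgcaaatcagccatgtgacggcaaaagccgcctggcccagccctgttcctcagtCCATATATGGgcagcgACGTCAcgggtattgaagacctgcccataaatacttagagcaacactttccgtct
JUND, chr19:18281623-18281872, minus strand: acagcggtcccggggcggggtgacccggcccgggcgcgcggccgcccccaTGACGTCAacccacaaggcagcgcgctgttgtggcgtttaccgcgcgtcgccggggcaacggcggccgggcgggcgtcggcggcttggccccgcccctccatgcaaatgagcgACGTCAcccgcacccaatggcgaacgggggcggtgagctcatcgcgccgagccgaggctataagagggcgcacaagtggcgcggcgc
JUNB, chr19:12791236-12791485, plus strand: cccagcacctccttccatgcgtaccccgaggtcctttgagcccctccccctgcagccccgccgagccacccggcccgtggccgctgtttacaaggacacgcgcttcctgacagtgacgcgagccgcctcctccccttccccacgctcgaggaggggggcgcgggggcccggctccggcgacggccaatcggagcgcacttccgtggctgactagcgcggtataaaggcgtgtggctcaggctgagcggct

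The EGR1 stretch holds CArG boxes that begin 105 and 83 bases before the start, with ACGTCA beginning at 136 and 67. The EGR2 stretch has the same arrangement on a smaller scale, a CArG box at 71 and ACGTCA at 55. In JUND there is no CArG box in the window, but the full palindrome TGACGTCA begins at 200 and ACGTCA at 87. JUNB has none of these, and only a TATAAA at 31. Searched on both strands over 300 bases (250 before to 50 after the start), CArG boxes were present in 1.29% of 35116 RefSeq promoter windows, TGACGT in 7.98%, the palindrome TGACGTCA, which contains TGACGT, in 1.85%, and TATAAA in 11.5%. Among 9 members with a window used here, CArG boxes were found in 2 (EGR1 and EGR2) and TGACGT in 5 (FOS, FOSB, JUND, EGR1 and EGR2). TATAAA was found in 4 (FOS, FOSB, JUNB and ATF3), and GCGNGGGCG in 2 (EGR1 and EGR2), against 9.43% of all windows. TGANTCA was found in 0 of the 9, against 7.71% of all windows. The 9 members have 12 windows, since EGR2 has 3 starts and ATF3 2, and each match above lies in 1 window of its gene, that of GCGNGGGCG in EGR2 and of TATAAA in ATF3 at the second start. These are letters in a window and not binding sites.

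On GRCh37, the build of the counts, JUN lies at chr1:59242517-59249720, JUNB at chr19:12902300-12904129 and JUND at chr19:18390504-18392432, and each is a gene of 1 exon. FOS is at chr14:75745529-75748933 and FOSB at chr19:45971253-45978437, each with 4 exons. EGR1 is at chr5:137801168-137804992 and EGR2 at chr10:64571756-64578927, with 2 exons each. ATF3 is at chr1:212738676-212794119 with 4 exons, and IER2 at chr19:13261225-13265725 with 2. JUNB shares 259 bases with HOOK2 on the opposite strand. IER2 shares 662 and 629 bases, and EGR3 164, with opposite-strand genes that have no row in the count table. EGR2 shares 109 bases with such a gene on its own strand. The sources used here do not say whether reads were counted by strand, so reads in these stretches cannot be told apart. What they add to the counts of IER2, EGR2 and EGR3 was not tested.

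Libraries held 912095 to 1666190 counted reads, with a median of 1394475.5, and this depth sets what can be said of the rarer members. Over all libraries JUND had 1935 reads, JUN 1296, IER2 486, JUNB 440, ATF3 386 and EGR1 225, whereas FOS had 49, EGR3 16, EGR2 14 and FOSB 10. The first 6 passed a filter on low counts and were tested together with the other genes, 11863 in all. The other 4 did not pass, and their reads are given as counts. Levels are in CPM, reads per 1000000 of the library total scaled by the trimmed mean of M-values, and intervals on pooled counts are exact 95% intervals for counting error only. The summed CPM of a list of 11 adrenergic neuroblastoma markers was 6283 to 9271 in Kelly and 3693 to 4311 in LAN-1, where TH and DBH were nearly absent, at means of 1.24 and 2.36 CPM. A list of 10 mesenchymal markers summed to 313 to 816 CPM in Kelly and 1031 to 1465 in LAN-1, carried by FN1 and VIM. Between the lines in DMSO, edgeR called 5 of the 8 tested genes of this list higher in LAN-1 and 2 lower (adjusted p under 0.05). In that comparison 67.7% of all tested genes were called. The 2 lower genes were TWIST1 (means over all libraries of 99.0 CPM in Kelly and 20.5 in LAN-1) and COL1A1 (49.8 and 2.25). Lists of haematopoietic, endothelial and epithelial markers summed to 1.28 to 8.51, 0 to 17.2 and 0 to 5.10 CPM over all libraries. Whether these differences in marker levels bear on the members was not tested. In RNA from bulk cultures, fewer cells of a type and less RNA per cell cannot be told apart.

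JUND was the most abundant member in both lines, and the order below it differed between them. Per kilobase of transcript, JUND averaged 54.4 ± 4.77 CPM in Kelly (SD, n = 8) and stood apart from every other member. JUN followed at 17.9 ± 2.05, then IER2 at 13.1 ± 2.02, JUNB at 12.4 ± 3.21 and ATF3 at 7.72 ± 2.55 CPM per kilobase, each overlapping its neighbour in range. A gap then separated ATF3 from FOS at 1.24 ± 0.602 and EGR1 at 0.976 ± 0.435 CPM per kilobase, which overlapped. FOSB averaged 0.0748 CPM per kilobase in Kelly, and EGR2 and EGR3 had no read there.
In LAN-1 the mean level of JUND was 36.8 ± 7.78 CPM per kilobase and that of JUN 18.9 ± 4.96, and the ranges of this pair met. ATF3 at 10.8 ± 2.07, JUNB at 9.38 ± 3.66, IER2 at 7.68 ± 1.92 and EGR1 at 6.06 ± 2.33 CPM per kilobase formed an overlapping series. EGR1 thus sat with the well expressed members in LAN-1 but with FOS in Kelly. Below it came FOS at 0.947 ± 0.510, EGR2 at 0.477 ± 0.311, EGR3 at 0.354 ± 0.294 and FOSB at 0.182 ± 0.123 CPM per kilobase, with each neighbouring pair overlapping.

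**Figure D1:**
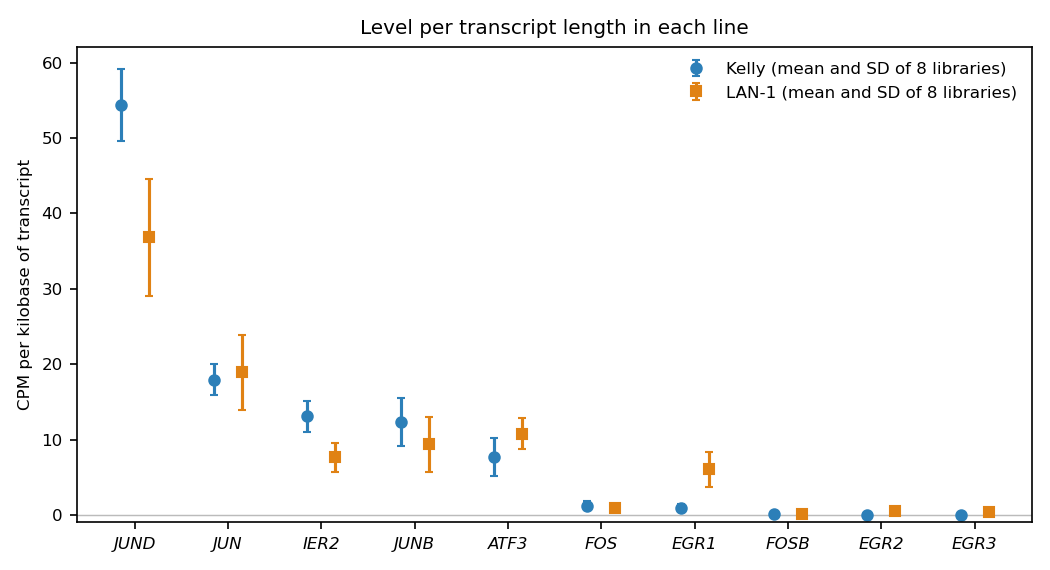
Level of each member (horizontal axis) in CPM per kilobase of transcript (vertical axis, linear) in Kelly (circles) and LAN-1 (squares). Points are means over the 8 libraries of a line and bars are SD. JUND is highest in both lines, and EGR1 moves from the low group in Kelly, at a mean of 0.976, to 6.06 in LAN-1.

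The comparison of untreated lines asks how basal expression of these factors differs between 2 MYCN-amplified backgrounds. Of the 6 tested members, 2 were higher in LAN-1 than in Kelly (EGR1 and ATF3), 3 were lower (JUND, JUNB and IER2), and JUN did not pass the test. The lines differed broadly: 67.7% of all tested genes were called in this comparison (edgeR, adjusted p under 0.05), so 5 of 6 members is not far from the background. The median log2 difference over the 6 tested members was -0.25, and over all tested genes -0.02.

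EGR1 showed the widest difference between the lines. It passed the filter on low counts only through LAN-1, as no Kelly library held more than 8 of its reads. That it was tested at all thus already reflects its LAN-1 counts, and its Kelly level is near the floor. Its reads in the 8 Kelly libraries numbered 5 and 2 in DMSO at day 2, 4 and 2 in DMSO at day 5, 8 and 4 in GSK126 at day 2, and 4 and 5 in GSK126 at day 5. In LAN-1 the corresponding numbers were 21 and 18, 21 and 22, 31 and 17, and 31 and 30. Every LAN-1 library, the lowest at 12.2 CPM, lay above every Kelly library, the highest at 4.90 CPM. In DMSO the log2 difference was 2.63 ± 0.45 (SE; 95% interval 1.73 to 3.52, edgeR adjusted p = 4.85e-10), higher in 4 of 4 LAN-1 libraries. Pooled over DMSO libraries, 82 reads in LAN-1 against 13 in Kelly gave a ratio of 6.37 (3.52 to 12.5), and over all libraries 191 against 34 reads gave 6.11 (4.23 to 9.08).

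The other EGR genes were detected in LAN-1 and not in Kelly. EGR2, a factor best known from Schwann cells and the hindbrain, had 2, 1, 0 and 3 reads in the LAN-1 DMSO libraries (day 2, then day 5) and 3, 2, 1 and 2 in the GSK126 libraries. EGR3, known from muscle spindle development, had 2, 1, 1 and 3 reads in LAN-1 with DMSO and 1, 0, 5 and 3 with GSK126. Of 6 Schwann cell markers, S100B had no read in either line and SOX10 averaged 0.271 CPM in Kelly and 0.390 in LAN-1. Their summed level, 39.5 to 67.2 CPM in Kelly and 1.68 to 6.61 in LAN-1, was nearly all PMP22, at means of 50.7 and 1.35 CPM. In Kelly both EGR genes had 0 reads in 8 of 8 libraries, which allows a level of up to 0.262 CPM at 3 counts over the Kelly libraries, or 0.322 CPM by the exact 95% interval. Over all libraries this made EGR2, with 14 reads, at least 5.08-fold higher and EGR3, with 16 reads, at least 5.80-fold higher in LAN-1, against that floor of 3 counts and without the counting error of the LAN-1 reads. With that error included, the exact 95% lower limits of the ratios were 3.61 for EGR2 and 4.20 for EGR3. In DMSO alone the floor gave at least 2.02-fold for EGR2 and at least 2.36-fold for EGR3, and the exact lower limits were 1.19 and 1.45. Without the filter, where 44.7% of genes with a read were called, edgeR gave an adjusted p of 0.0574 for EGR2 and 0.0356 for EGR3. The EGR3 call held in 2 of 8 fits that each left out 1 DMSO library, those without LAN-1 DMSO day 2 replicate 2 and LAN-1 DMSO day 5 replicate 1, and its adjusted p over these fits ran from 0.026 to 0.149.

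NAB1 and NAB2, the corepressors that bind EGR proteins and are themselves induced by them, were both higher in LAN-1. NAB2 had 9.72 to 18.9 CPM in Kelly and 37.6 to 52.5 CPM in LAN-1, with no overlap. Its log2 difference in DMSO was 1.56 ± 0.19 (SE, edgeR adjusted p = 1.99e-13) and that of NAB1 0.74 ± 0.11 (adjusted p = 1.01e-09). The third gene of this list, EGR4, did not pass the filter.

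JUND, the steadily expressed JUN family member, was lower in LAN-1. Kelly with DMSO had 115 and 109 CPM at day 2 and 98.6 and 119.8 at day 5, against 74.3 and 61.8 at day 2 and 59.9 and 77.3 CPM at day 5 in LAN-1. All 4 LAN-1 values lay below all 4 Kelly values. The log2 difference was -0.70 ± 0.11 (SE; 95% interval -0.92 to -0.49, edgeR adjusted p = 1.01e-08). JUND transcripts are 69.9% G and C, among a median of 47.9% over the tested genes, and after correction for GC content the difference was smaller and still called, at -0.39 (adjusted p = 0.000267).

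JUNB, which can restrain JUN on shared targets, was also lower in LAN-1, with overlapping values. Kelly DMSO libraries had 20.7 and 30.3 CPM at day 2 and 23.9 and 30.4 at day 5, and LAN-1 had 21.8 and 17.7, then 12.5 and 11.8 CPM. The day 5 libraries were apart, and at day 2 the ranges met. Its log2 difference was -0.79 ± 0.21 (SE; 95% interval -1.21 to -0.36, edgeR adjusted p = 0.000556), and -0.50 (adjusted p = 0.0221) with the GC correction. HOOK2, the gene that overlaps it, was lower in LAN-1 by a like amount, -0.75 ± 0.33 on the log2 scale (adjusted p = 0.0328), from 7.90 to 12.6 CPM in Kelly with DMSO and 4.07 to 7.68 in LAN-1. Whether shared reads contributed to the JUNB value was not tested.

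JUN itself, the founding AP-1 partner of FOS, was measured at similar values in the 2 lines. Kelly DMSO libraries had 48.5 and 50.7 CPM at day 2 and 61.3 and 54.1 at day 5, and LAN-1 had 53.8 and 43.5, then 72.4 and 63.0 CPM. The LAN-1 range enclosed that of Kelly. The log2 difference was 0.11 ± 0.13 (SE, edgeR adjusted p = 0.472), and its 95% interval, -0.15 to 0.37, bounds the difference.

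IER2, a small nuclear protein induced with FOS and JUN, was lower in LAN-1, and ATF3, a stress-induced repressor, was higher. IER2 had 18.9, 28.4, 32.9 and 28.0 CPM in Kelly with DMSO and 21.1, 12.9, 17.4 and 19.3 in LAN-1. These ranges overlapped through the lowest Kelly and the highest LAN-1 libraries, and the log2 difference was -0.62 ± 0.20 (SE; 95% interval -1.01 to -0.23, edgeR adjusted p = 0.0036). ATF3 had 17.1, 14.8, 20.2 and 6.69 CPM in Kelly with DMSO and 15.4, 18.3, 27.9 and 19.3 in LAN-1. Here the ranges overlapped widely, with 1 low Kelly library, and the log2 difference was 0.50 ± 0.23 (SE; 95% interval 0.05 to 0.95, adjusted p = 0.0438). These were the weakest of the 5 calls, and IER2 lost its call with the GC correction, at -0.35 (adjusted p = 0.0871). Without Kelly DMSO day 2 replicate 2 neither was called, at adjusted p = 0.122 for ATF3 and 0.110 for IER2. ATF3 was not called either without Kelly DMSO day 5 replicate 2 (0.535), LAN-1 DMSO day 2 replicate 2 (0.130) or LAN-1 DMSO day 5 replicate 1 (0.253).

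FOS and FOSB, the FOS family members that depend most on acute stimulation, were at the edge of detection in both lines. FOS had 4, 2, 2 and 2 reads in the Kelly DMSO libraries and 2, 1, 2 and 2 in those of LAN-1. FOSB had 0, 1, 0 and 0 reads in Kelly with DMSO and 2, 1, 0 and 1 in LAN-1. No line difference of either gene was detected: without the filter, edgeR gave an adjusted p of 0.741 for FOS and 0.419 for FOSB. Across all members and genes, the DMSO libraries of the lines did not overlap for EGR1, EGR3 and JUND among the 10 members, and for 57.6% of the tested genes.

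**Figure D2:**
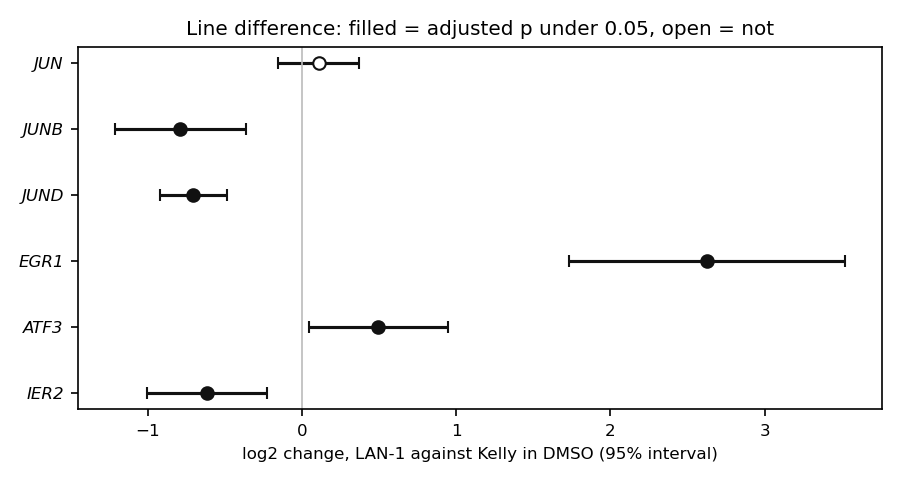
Log2 difference of LAN-1 from Kelly in DMSO, mean of both days, for the 6 tested members (horizontal axis; points are edgeR estimates, filled where called, and bars their 95% intervals). EGR1 at 2.63 is farthest to the right, JUNB at -0.79 and JUND at -0.70 are to the left of 0, and the interval of JUN includes 0.

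Genes that work with these factors also differed between the untreated lines, in both directions, at shares to be read against the 67.7% of all tested genes called. Of 9 further AP-1 subunits, 5 were tested, of which 1 was higher in LAN-1 and 2 were lower. FOSL2, a FOS family member that unlike FOS is expressed without stimulation, had 50.5 to 64.3 CPM in Kelly with DMSO and 16.8 to 35.9 in LAN-1. Its log2 difference was -1.16 ± 0.16 (SE, edgeR adjusted p = 3.61e-11). The small MAF proteins, dimer partners that lack an activation domain, went in opposite directions. On the log2 scale MAFG was at 0.87 ± 0.12 (edgeR adjusted p = 7.76e-11) and MAFK at -1.81 ± 0.59 (adjusted p = 0.00118). MAFK passed the filter on low counts only through Kelly, as no LAN-1 library exceeded 2.56 CPM. Of 9 SRF, TCF, MRTF and CREB factors, which bind CArG boxes or the CREB element or act through them, 6 were higher in LAN-1 and 1 was lower, with a median log2 difference of 0.54. The 3 with the smallest p were CREB1 at 0.70 ± 0.09 (adjusted p = 7.91e-11), ELK1 at 0.83 ± 0.14 (adjusted p = 6.19e-08) and SRF at 0.72 ± 0.13 (adjusted p = 4.12e-07).

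Other immediate early genes were lower in LAN-1 more often than higher. Of 30 listed, 16 were tested, and 9 were lower, 3 higher and 4 not called, with a median log2 difference of -0.68 beside -0.02 over all tested genes. BTG2, an antiproliferative gene, was nearly absent from LAN-1: its reads in the DMSO libraries were 40, 51, 72 and 72 in Kelly and 1, 0, 0 and 0 in LAN-1 (edgeR adjusted p = 8.14e-32). ARC, a neuronal activity gene, had 12, 26, 38 and 41 reads in Kelly and 0, 1, 0 and 1 in LAN-1 (adjusted p = 1.84e-18). ZFP36L1, which promotes decay of AU-rich messages, went the other way, with 1, 1, 3 and 2 reads in Kelly and 45, 45, 39 and 42 in LAN-1 (log2 difference 4.65 ± 0.62, adjusted p = 3.31e-24). In each of these 3 genes the lines did not overlap, beside 57.6% of all tested genes in DMSO. BTG2 and ARC passed the filter on low counts only through Kelly, as no LAN-1 library exceeded 4.08 and 2.10 CPM. That they were tested at all thus already reflects their Kelly counts. Their LAN-1 levels, and that of ZFP36L1 in Kelly with DMSO, are near the floor.
Of 13 JNK and ERK pathway kinases, 3 were higher and 4 lower, among them RPS6KA2 at 0.80 ± 0.12 (adjusted p = 7.73e-10) and MAP2K2, which phosphorylates ERK, at -0.78 ± 0.12 (adjusted p = 7.53e-09). The heat shock genes, which respond to handling stress as immediate early genes do, were higher in 7 and lower in 2 of 10 tested. HSPB1 had the lowest difference at -1.99 ± 0.12 (adjusted p = 2.14e-33), while HSPD1 and HSP90AA1, mitochondrial and cytosolic chaperones, were higher by 0.94 and 0.64 on the log2 scale.

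The treatment comparison asks whether inhibiting EZH2, which places the repressive H3K27me3 mark, altered the members within each line and at each day. None of the 6 tested members was called in any of the 4 comparisons of GSK126 with DMSO, nor in their mean. In Kelly at day 2 edgeR called 0 of 6, with 0 at an unadjusted p under 0.05, and 0.177% of all genes were called. In Kelly at day 5 it called 0 of 6, with 1 (JUNB) at an unadjusted p under 0.05, and 4.9% of all genes were called. In LAN-1 the corresponding figures were 0 and 0 members beside 0.152% of all genes at day 2, and 0 and 1 (EGR1) beside 3.66% at day 5. For the mean of both lines and days they were 0 and 1 (EGR1) beside 6.47%. DESeq2 also called 0 members in each of these, although for LAN-1 at day 5 it gave no adjusted p for 5 of the 6. The share of all tested genes at an unadjusted p under 0.05 was 7.48%, 16.5%, 6.23%, 16.7% and 18.9% in the same order.

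**Figure D3:**
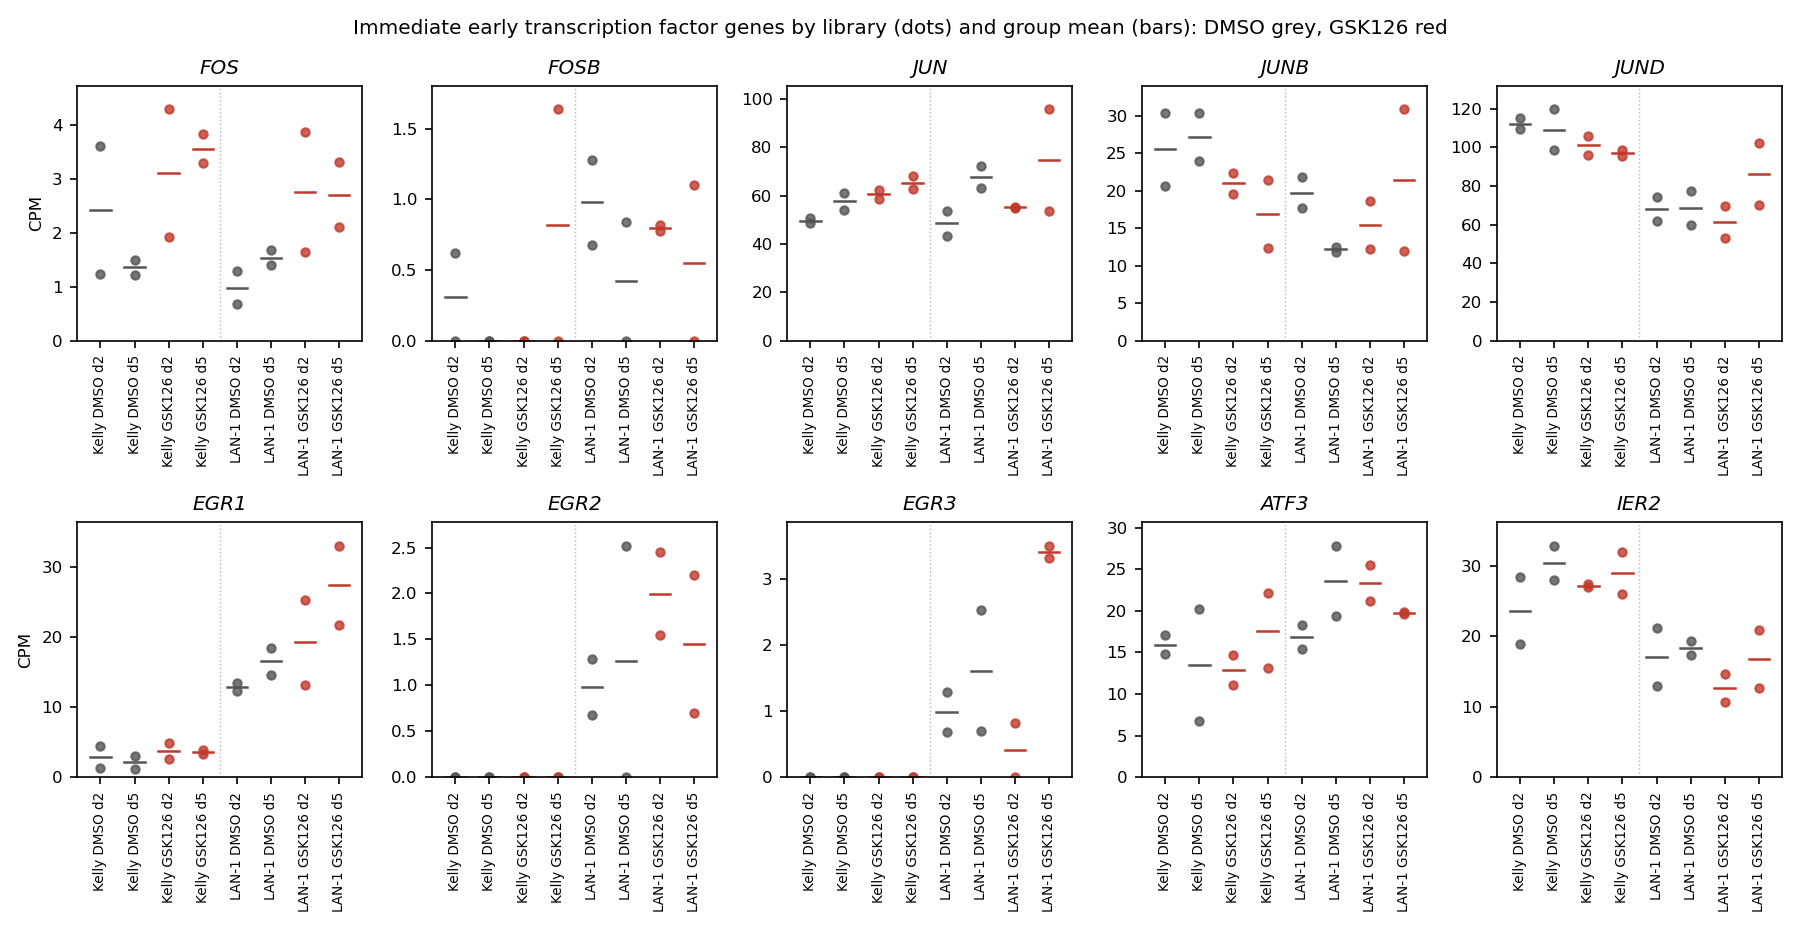
CPM of each member in all 16 libraries, grouped by line, treatment and day, with 1 point per library and a line at the mean of each group of 2. EGR1 is higher in every LAN-1 library than in any Kelly library, the few reads of EGR2 and EGR3 all lie in LAN-1, and LAN-1 GSK126 day 5 replicate 2 is the highest LAN-1 library for JUN, JUNB, JUND and EGR1.

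EGR1 had a higher mean with GSK126 in 4 of 4 line and day pairs, without passing the test. Its Kelly comparisons rest on 34 reads over all Kelly libraries, near the 29 of FOS, which did not pass the filter. In Kelly the values were 4.49 and 1.24 CPM with DMSO and 4.90 and 2.55 with GSK126 at day 2, and 2.99 and 1.22 against 3.28 and 3.82 CPM at day 5. In LAN-1 they were 13.4 and 12.2 against 25.3 and 13.1 CPM at day 2, and 14.6 and 18.5 against 21.7 and 33.1 CPM at day 5. The groups overlapped at day 2 in both lines and were apart at day 5 in both. In Kelly at day 5 this held on the CPM scale only, as the reads tied (4 and 5 with GSK126, 4 and 2 with DMSO). The log2 differences were 0.53 ± 0.72 and 0.79 ± 0.79 in Kelly and 0.57 ± 0.34 and 0.68 ± 0.31 in LAN-1 (SE; edgeR adjusted p = 0.916, 0.669, 0.824 and 0.242). Their mean was 0.64 ± 0.29 (95% interval 0.06 to 1.22, adjusted p = 0.178).

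FOS had more reads with GSK126 than with DMSO, but too few for a firm statement. Its reads with GSK126 were 7, 3, 4 and 5 in Kelly and 2, 5, 3 and 3 in LAN-1, 32 in all against 17 with DMSO. The pooled ratio was 2.02 (1.09 to 3.88), an interval that covers counting error and not the spread between cultures. Groups were apart on the CPM scale in 3 of the 4 line and day pairs and overlapped in Kelly at day 2. Such gaps were seen in 36.0% to 46.8% of all tested genes, depending on the pair. For LAN-1 at day 2 the FOS reads tied, with 2 and 5 under GSK126 against 2 and 1 under DMSO. Without the filter the mean log2 difference was 0.99 ± 0.50 (SE, edgeR adjusted p = 0.313), and in 16 fits that each left out a library the adjusted p ran from 0.232 to 0.675. FOSB had 5 reads with each treatment, EGR2 8 with GSK126 and 6 with DMSO, and EGR3 9 and 7. On the CPM scale, though not in reads, pairs of LAN-1 libraries were apart, with GSK126 above, for EGR2 at day 2 (3 and 2 reads against 2 and 1) and EGR3 at day 5 (5 and 3 against 1 and 3).

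JUN lay above its DMSO pair in Kelly at both days and in LAN-1 at day 2. In Kelly it had 58.8 and 62.5 CPM with GSK126 at day 2 and 68.0 and 62.6 at day 5, a log2 difference of 0.28 ± 0.18 and 0.18 ± 0.18 (SE; edgeR adjusted p = 0.767 and 0.678). In LAN-1 at day 2 it had 55.5 and 54.9 CPM, a difference of 0.18 ± 0.19 (adjusted p = 0.951). The day 5 libraries, at 53.9 and 95.9 CPM, enclosed the DMSO pair and gave 0.06 ± 0.18 (adjusted p = 0.92). The mean over lines and days was 0.18 ± 0.09 (adjusted p = 0.28), and without LAN-1 GSK126 day 5 replicate 1 it was 0.28 and passed the test (adjusted p = 0.0361).

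JUNB was the member whose estimates pointed most clearly in opposite directions in the 2 lines at day 5. In Kelly it had 12.3 and 21.4 CPM with GSK126 at day 5, both below the DMSO pair of 23.9 and 30.4, with a log2 difference of -0.69 ± 0.30 (SE; 95% interval -1.28 to -0.10, edgeR adjusted p = 0.186). HOOK2 on the other strand had 17.2 and 19.1 CPM in the same 2 libraries against 11.2 and 7.90 with DMSO, a difference of 0.95 ± 0.36 (adjusted p = 0.118). In LAN-1 at day 5 JUNB had 11.9 and 30.9 CPM with GSK126, which enclosed the DMSO pair of 12.5 and 11.8, and a difference of 0.67 ± 0.36 (95% interval -0.04 to 1.38, adjusted p = 0.33). At day 2 it was measured at 19.6 and 22.3 CPM with GSK126 in Kelly and at 12.2 and 18.6 in LAN-1, with differences of -0.33 ± 0.27 and -0.35 ± 0.32 (adjusted p = 0.839 and 0.939).

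JUND, ATF3 and IER2 showed no shared direction. JUND lay below its DMSO pair in Kelly, with 96.1 and 105.9 CPM at day 2 and 98.4 and 95.5 at day 5. At day 5 the nearest libraries were hardly apart, at 98.37 CPM with GSK126 and 98.65 with DMSO. Its log2 differences in Kelly were -0.15 ± 0.14 and -0.18 ± 0.15 (edgeR adjusted p = 0.874 and 0.591). In LAN-1 it had 53.0 and 69.6 CPM at day 2 and 69.95 and 102.5 at day 5 (-0.15 ± 0.18 and 0.29 ± 0.17, adjusted p = 0.952 and 0.394). ATF3 had 11.0 and 14.7, then 13.1 and 22.2 CPM with GSK126 in Kelly, and 21.2 and 25.5, then 19.6 and 19.8 in LAN-1. Its log2 differences in that order were -0.30 ± 0.34, 0.47 ± 0.34, 0.48 ± 0.30 and -0.28 ± 0.30. Each interval includes 0 (edgeR adjusted p = 0.896, 0.531, 0.842 and 0.705). The estimates changed sign between days in both lines, and neither change was called (adjusted p = 0.766 in Kelly and 0.556 in LAN-1). IER2 had 26.9 and 27.4, then 32.0 and 26.0 CPM in Kelly, and 10.6 and 14.7, then 12.6 and 20.9 in LAN-1. Its differences were 0.15 ± 0.25, -0.06 ± 0.25, -0.43 ± 0.34 and -0.20 ± 0.33, each with an interval that includes 0.

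With 2 libraries a group, many genes had pairs that did not overlap. GSK126 and DMSO libraries of Kelly did not overlap in 36.7% of the tested genes at day 2 and 46.8% at day 5, and those of LAN-1 in 36.0% and 44.2%. Of the 6 tested members, the pairs were apart for JUN, JUND and ATF3 in Kelly at day 2, and for JUN, JUNB, JUND and EGR1 in Kelly at day 5. They were apart for JUN and ATF3 in LAN-1 at day 2, and for EGR1 in LAN-1 at day 5. Over the 6 members the median log2 difference was 0.00, 0.06, 0.02 and 0.18 in these 4 comparisons, beside 0.01, 0.01, 0 and 0 over all tested genes.

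**Figure D4:**
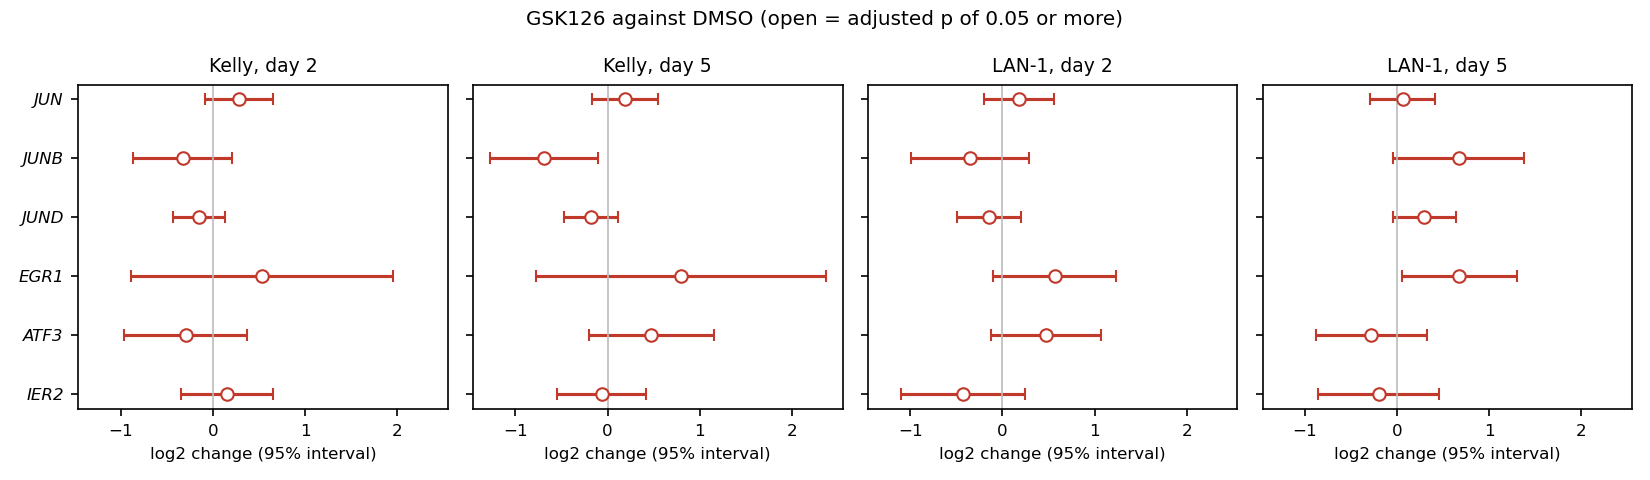
Log2 difference of GSK126 from DMSO for the 6 tested members in each line and at each day, 1 panel each (horizontal axis; points are edgeR estimates, open because none was called, and bars their 95% intervals). The EGR1 points are above 0 in all 4 comparisons with wide intervals in Kelly, and the JUNB points at day 5 lie at -0.69 in Kelly and 0.67 in LAN-1.

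The LAN-1 estimates at day 5 rest on a pair of unlike libraries. LAN-1 GSK126 day 5 replicate 2 is the smallest library, with 912095 reads. Across genes, its deviation from the mean of its line correlated with GC content at 0.430, and the variance within its pair was 2.04 times that of counting, against 1.11 to 1.84 in the other pairs. It had the highest CPM of all LAN-1 libraries for JUN, JUNB, JUND and EGR1. Without it the log2 difference of JUNB was -0.03, that of JUND 0.04, that of JUN -0.34 and that of EGR1 0.40. Without replicate 1 these were 1.33, 0.59, 0.49 and 1.01, and JUNB then passed the test (edgeR adjusted p = 0.0241). With a GC correction and both libraries they were 0.42, -0.01, -0.09 and 0.54. The sign for EGR1 was thus the same in these 4 settings, and those for JUNB, JUND and JUN were not. JUND, JUNB and IER2 transcripts are GC-rich, at 69.9%, 64.9% and 63.0%. Among the Kelly libraries, DMSO day 2 replicate 1 deviated most along GC, at -0.251, and the variance within its pair was 1.84 times that of counting. It is part of the comparison of lines, and was the lowest Kelly DMSO library for JUNB and IER2, at 20.7 and 18.9 CPM. What sets these libraries apart was not tested.

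**Figure D5:**
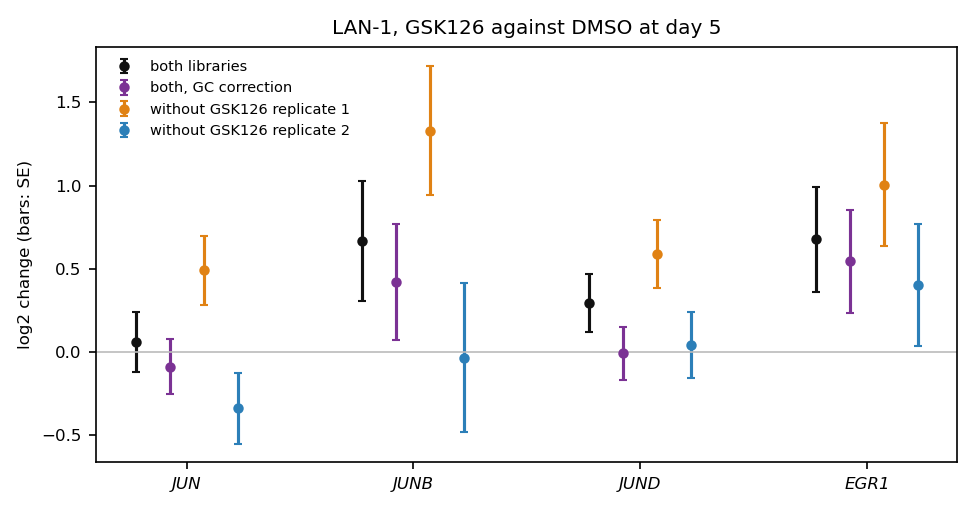
Log2 difference of GSK126 from DMSO in LAN-1 at day 5 for JUN, JUNB, JUND and EGR1 (vertical axis; points are edgeR estimates, bars their SE) with both GSK126 libraries, with a GC correction, without replicate 1 and without replicate 2. JUNB runs from 1.33 without replicate 1 to -0.03 without replicate 2, whereas EGR1 is above 0 throughout.

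Tests of whether the treatment difference itself varied between lines or days called none of the members. For LAN-1 minus Kelly at day 2, edgeR called 0 of 6, with 0 at an unadjusted p under 0.05, and 0.00843% of all genes. At day 5 it called 0 of 6, with 2 (JUNB and JUND) at an unadjusted p under 0.05, and 1.85% of all genes. The difference between lines at day 5 was 1.36 ± 0.47 for JUNB (SE; 95% interval 0.43 to 2.28, adjusted p = 0.113) and 0.48 ± 0.23 for JUND (adjusted p = 0.336). For day 5 minus day 2, 0 of 6 members were called in Kelly, where 0.379% of all genes were, with 0 at an unadjusted p under 0.05. In LAN-1 0 of 6 were called, beside 0.539% of all genes, with 1 (JUNB, 1.02 ± 0.48, adjusted p = 0.438) at an unadjusted p under 0.05. The JUNB and JUND values include the unlike LAN-1 library. Without its partner, GSK126 day 5 replicate 1, that library alone stood for its group, and the JUNB estimates were 2.02 between lines and 1.68 between days. Without the unlike library itself, the LAN-1 difference of JUNB at day 5 changed sign, as given above. The size of both JUNB contrasts thus depends on which of the 2 libraries is kept. DESeq2 called 0 members in these 4 contrasts, with no adjusted p for 4 of 6 between lines at day 5, 4 of 6 in Kelly between days and 6 of 6 in LAN-1 between days.

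Time in culture without the inhibitor did not change a member past the threshold. Between day 5 and day 2 in DMSO, edgeR called 0 of 6 members and 0.438% of all genes in Kelly, with 0 members at an unadjusted p under 0.05. In LAN-1 it called 0 of 6 and again 0.438% of all genes, with 2 members, JUN and JUNB, at an unadjusted p under 0.05. JUN was higher at day 5 in both LAN-1 libraries by 0.48 ± 0.18 on the log2 scale (adjusted p = 0.403). JUNB was lower in both by 0.69 (estimate -0.69 ± 0.34, adjusted p = 0.64). DESeq2 called 0 members in both comparisons, with no adjusted p for 5 of 6 in Kelly and 3 of 6 in LAN-1. DMSO pairs of the 2 days were apart in 35.9% of tested genes in Kelly and 36.8% in LAN-1.

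Around the members, some genes of the listed partners and pathways were called with GSK126. In the mean of both lines and days, 6.47% of all tested genes were called. Beside that stood 2 of 16 other immediate early genes, 2 of 13 kinases and 1 of 9 SRF, TCF, MRTF and CREB factors. In Kelly at day 5 these counts were 1, 1 and 0, beside 4.9% of all tested genes. In LAN-1 at day 5 they were 0, 0 and 0, beside 3.66%. No further AP-1 subunit and neither NAB corepressor was called by edgeR in any GSK126 comparison, nor by DESeq2 or under any other alternative. Among the other immediate early genes, ZFP36L1 rose in Kelly at day 5, from 3 and 2 reads with DMSO to 11 and 12 with GSK126 (log2 difference 2.38 ± 0.72, adjusted p = 0.00673). That call was lost without Kelly DMSO day 5 replicate 2 (adjusted p = 0.185), without Kelly GSK126 day 5 replicate 2 (0.0644) and under DESeq2 (0.0931). BTG2 rose in the mean of both lines and days (edgeR adjusted p = 0.00241). It passed the filter on low counts only through Kelly, and its LAN-1 reads were near the floor. In LAN-1 it went from 1, 0, 0 and 0 reads with DMSO to 5, 3, 2 and 3 with GSK126, and in Kelly from 40, 51, 72 and 72 to 80, 75, 66 and 74. The BTG2 call held in 23 of 23 alternatives, with adjusted p up to 0.0277.
In the mean of both lines and days, ZFP36L1 also rose (1.04 ± 0.35, adjusted p = 0.0173), CREB1 fell by 0.23 on the log2 scale (adjusted p = 0.0257), and the kinase genes RPS6KA2 and MAP2K4 rose by 0.30 and 0.31 (adjusted p = 0.00746 and 0.0307). Of these, ZFP36L1 lost its call in 5 of 23 alternatives, CREB1 in 10, MAP2K4 in 10 and RPS6KA2 in 1. RPS6KA2 also rose in Kelly at day 5, by 0.64 ± 0.18 (adjusted p = 0.0142), a call lost in 4 of 11 alternatives.
Among the heat shock genes, HSPB1 rose in LAN-1 at day 5, from 35.5 and 31.9 CPM with DMSO to 54.6 and 80.4 with GSK126 (0.94 ± 0.21, adjusted p = 0.00127). Without LAN-1 GSK126 day 5 replicate 2 it was no longer called, at 0.69 (adjusted p = 0.137). HSP90AA1 fell by 0.33 there (adjusted p = 0.00482), a call lost without LAN-1 DMSO day 5 replicate 2 (0.120) and without LAN-1 GSK126 day 5 replicate 2 (0.0751), and by 0.17 in the mean of both lines and days (adjusted p = 0.00247). The number of heat shock genes called lower depended on the setting: it was 0 in Kelly at day 5, 1 in LAN-1 then and 1 in the mean, and under the alternatives 0 to 4, 0 to 4 and 1 to 6 of 10. DNAJB1, the stress-inducible cochaperone, was higher at day 5 than at day 2 in Kelly with DMSO (0.53 ± 0.14, adjusted p = 0.0385), which was lost in 8 of 12 alternatives. In Kelly at day 5, where 4.9% of all tested genes were called, 7 of 11 adrenergic markers were lower and 5 of 8 tested mesenchymal markers higher with GSK126. In LAN-1 at day 5, where 3.66% of all tested genes were called, 2 adrenergic markers were higher and 0 lower, and 2 mesenchymal markers were higher. Whether these shifts bear on the members' values was not tested.

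Library by library, after the mean of each line was subtracted, the members did not move as 1 block. Over the 16 libraries, which share depth and base composition effects, the highest Pearson r on log2 CPM between members was 0.635 for JUNB and JUND, then 0.601 for JUN and IER2 and 0.494 for JUN and EGR1. The lowest was -0.312 for JUND and ATF3. Among 10025 genes with a mean of at least 10 CPM, those most like JUN were PCOLCE (0.872), RPL10A (0.848) and SEMA7A (0.841). Nearest to JUNB were ESPL1 (0.885), PDIA4 (0.861) and RAB5C (0.829), and nearest to JUND were NDUFB4 (0.887), DCTN2 (0.861) and GIT1 (0.857). EGR1 was followed most closely by PACS2 (0.810), PTPRO (0.768) and SNAP25 (0.764), ATF3 by MPV17L2 (0.821) and ARMCX3 (0.774), and IER2 by CCDC134 (0.866), PTMS (0.861) and TMEM63B (0.814). No member was among the 3 genes nearest to another.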

How the data were processed

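RNA sequencing of 16 libraries was analysed from 1 deposited table of raw read counts per gene. Per the submitters' processing notes the authors used FastQC, TopHat2 and featureCounts with GRCh37 (hg19). Their versions, the annotation, the strand setting and the handling of reads that map to several places are not given in the sources used here. RNA was extracted with an RNeasy kit and libraries followed a standard Illumina protocol, per the labels' protocols.

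Counts were filtered (filterByExpr of edgeR 4.0.16, minimum count 10, 11863 genes kept), scaled by TMM (factors 0.977 to 1.03) and fitted over all 16 libraries with 1 mean for each of 8 groups by edgeR's robust quasi-likelihood model in R 4.3.3 (8 residual degrees of freedom from the libraries, common biological coefficient of variation 5.31%). Benjamini-Hochberg adjustment ran over all tested genes, and an adjusted p under 0.05 was a call. SEs and 95% intervals are Wald values on the log2 scale. The model shares the spread across genes, with a median of 111 prior degrees of freedom beside those 8. The p-values and intervals thus rest mostly on spread shared over genes, and less on each gene's own duplicates. The fits were tested on simulated counts. Transcript length and GC content came from the Ensembl canonical transcript of GENCODE's GRCh37 annotation, which matched 21873 symbols directly and 1441 through a synonym of 25728, and 98.6% of tested genes had a GC value. In the smallest library 1 read of a gene such as MAFK equals 1.10 CPM, so levels of a few CPM carry little precision.

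Alternatives were RLE normalization, DESeq2 1.42.0, no filter, a replicate block, a GC correction, the block with the GC correction, a fit within 1 line, leaving out each library in turn and, chosen after seeing how duplicates differed, leaving out the 2 libraries that stood apart along GC. These libraries were Kelly DMSO day 2 replicate 1 and LAN-1 GSK126 day 5 replicate 2. The members and lists were chosen with earlier results of these data known. Genes named beside the members were the 3 with the smallest adjusted p of each list, where called, and the 3 most correlated with each member of at least 10 CPM on log2 CPM with a prior count of 2. Of the genes this rule names, 2 are not reported here. HOOK2 was named after its overlap with JUNB was seen. No protein sequence was used here.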

Additional observations from a re-analysis of the deposited data

Results flagged for a closer look

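ZFP36L1 responded differently in the lines at day 5, by a test of the difference itself: the GSK126 difference in LAN-1 minus that in Kelly was -2.54 ± 0.76 on the log2 scale (SE, 2 libraries a group, edgeR adjusted p = 0.0167), with DMSO and GSK126 at 27.2, 35.3, 21.7 and 36.4 CPM in LAN-1. The call was lost in 6 of 15 alternatives.

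HSPB1 also differed between the lines at day 5, by 1.22 ± 0.24 (adjusted p = 0.000399), and kept its call in 15 of 15 alternatives. In Kelly it had 147.2 and 164.1 CPM with DMSO and 130.3 and 126.8 with GSK126.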

How the results depend on the processing

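Of the 5 called member results, all in the comparison of lines, 65 recomputed values kept the call and 10 lost it, and none changed sign. Of the 67 uncalled ones, 931 values stayed uncalled and 4 passed. EGR1 (2.23 to 3.13), JUNB (-0.89 to -0.45) and JUND (-0.79 to -0.38) kept their line calls in 15 of 15 alternatives. ATF3 also lost its call under DESeq2 (adjusted p = 0.205), with no filter (0.0592) and with the replicate block (0.0553), and IER2 with the GC correction and the block (0.0905).

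With single libraries left out, the members called in the line comparison ranged from 3 (without Kelly DMSO day 2 replicate 2) to 5. In LAN-1 at day 5, in the mean over lines and days, in the line contrast at day 5 and in the LAN-1 contrast of days, the range was 0 to 1. The 1 came without LAN-1 GSK126 day 5 replicate 1 and was JUNB, except JUN in the mean (0.28, adjusted p = 0.0361). In the other comparisons it was 0 throughout.

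No pairing of libraries by replicate number was seen: deviations of same-numbered libraries correlated at -0.0876 to 0.0671 within a line, over 0.1 in 0 of 12 pairs of groups. The variance within pairs was 1.11 to 2.04 times that of counting, so counting noise could hide a pairing from this check. With the replicate block 4 members were called between the lines, and 0 in every other comparison.

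Calls over all genes moved by more than 1.5 times in each comparison but that of the lines. With single libraries left out and under the other settings, 21 in Kelly at day 2 became 2 to 11 and 3 to 54, and 581 at day 5 became 239 to 355 and 163 to 1007. In LAN-1, 18 at day 2 became 3 to 14 and 2 to 39, and 434 at day 5 became 139 to 735 and 154 to 437. The 768 of the mean became 577 to 960 and 289 to 1293. For day 5 against day 2 in DMSO, 52 became 10 to 40 and 15 to 109 in Kelly, and 52 became 21 to 32 and 22 to 82 in LAN-1. In the contrasts, 1 between lines at day 2 became 0 to 2 and 0 to 2, 220 at day 5 became 117 to 479 and 73 to 243, 45 between days in Kelly became 22 to 46 and 15 to 64, and 64 in LAN-1 became 24 to 223 and 28 to 74. The 8034 between lines became 7562 to 8021 and 6825 to 8557. The cause of these changes was not tested. Depth limits FOS, FOSB, EGR2 and EGR3 to counts of reads.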
